A study of Homo sapiens with 6 samples.

Results

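The genes described here are 33 genes of the endoplasmic reticulum (ER), the compartment in which secreted and membrane proteins are folded and from which misfolded ones are removed. They were taken by gene name from 34 names of ER folding enzymes, stress sensors, degradation factors and translocation or export factors. VIMP matched no row, being an older name of SELENOS, so 33 of the 20532 genes in the table were members. All 33 were among the 13988 genes that passed the filter on low counts. mRNA had been sequenced from ACHN cells, a human renal carcinoma line that the labels assign to clear cell renal cell carcinoma. The groups were a stable line with a lentiviral hairpin against DNAJC2 (shDNAJC2 1, 2 and 3) and a stable line with a lentiviral negative control hairpin (shCtrl 1, 2 and 3). The 3 libraries of a group are described as biological replicates. Nothing states that they came from separate transductions, so a p-value here measures how these libraries vary, which may be technical.

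A protein entering the ER through the SEC61 channel is bound by the HSP70-type chaperone HSPA5, passes through the lectin cycle of calnexin and calreticulin if it carries sugars, and gains disulfide bonds from protein disulfide isomerases that ERO1 enzymes reoxidise. When unfolded proteins accumulate, IRE1 (gene ERN1) splices XBP1 mRNA, ATF6 is cleaved to a transcription factor, and PERK (gene EIF2AK3) raises translation of ATF4. These branches of the unfolded protein response raise chaperones, ER-associated degradation factors and, for PERK, amino acid and stress genes. Gene-level counts report the amount of XBP1 mRNA and not its splicing, and they report neither ATF6 cleavage nor PERK activity.

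DNAJC2, the targeted gene, was at 51.2, 50.4 and 38.5 CPM (the count scaled to library size with TMM factors) in shDNAJC2 1, 2 and 3, against 76.7, 69.8 and 86.5 CPM in shCtrl 1, 2 and 3. The groups did not overlap, and DNAJC2 had a log2 fold change of −0.74 (standard error 0.15, adjusted p = 0.429 in edgeR). The two-sided exact permutation p was 0.1, the smallest that 3 libraries against 3 allow. Total counts ranged from 17491462 to 25760291. The library shCtrl 3 stood apart from shCtrl 1 and 2 over the whole table. On the first principal component shDNAJC2 1, 2 and 3 lay at 34.3, 34.6 and −1.40, against −52.6, −51.0 and 36.1 for shCtrl 1, 2 and 3. Of the 13988 genes tested, shCtrl 3 was nearer to the knockdown mean than to the mean of shCtrl 1 and 2 for 74.6%, on the log2 scale. Results are therefore given with all 6 libraries and without shCtrl 3. Leaving it out was chosen with earlier results of these data known, and describes 3 knockdown libraries against 2 controls. Those 2 controls were the closest pair of libraries, with a chi-square per degree of freedom over genes of 3.19. The next closest pair, shDNAJC2 1 and 2, had 7.51, and shCtrl 3 had 171 and 177 against shCtrl 1 and 2. All 33 members agreed within 1.2-fold between shCtrl 1 and 2. Small p-values in that fit thus rest on 2 controls with little spread, and may not reflect biological replication. Among the renal epithelial markers reported here, PAX2, LHX1 and CDH16 were at or near 0 in every library, PAX8 lay between 2.82 and 4.64 CPM, and VIM, a mesenchymal filament gene that makes up most of the list's summed level, between 2961 and 4350 CPM. Of the 7 tested, 0 passed over all libraries (median log2 fold change −0.04). Without shCtrl 3 CA9 rose and CDH6 fell (median 0.09). Of 7 blood and immune markers 1 passed the filter, CD3E and MS4A1 had no count in any library, and the summed level was 0.995 to 1.41 CPM in the knockdown and 0.984 to 2.22 CPM in the controls. Of 6 endothelial markers 5 passed it, CDH5 had no count, and the summed level was 56.5 to 58.1 CPM in the knockdown and 58.2 to 73.1 CPM in the controls. That sum is mostly TEK, which fell without shCtrl 3, while PECAM1 and KDR, each under 4 CPM, rose. The median of the 5 was 0.65 over all libraries, where 0 passed, and 1.04 without shCtrl 3.

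The ER stress response element (ERSE), to which NF-Y and ATF6 bind, was defined on promoters of ER chaperones and reads CCAAT, then 9 bases of any kind, then CCACG. Its variant ERSE-II reads ATTGG, then 1 base of any kind, then CCACG. RefSeq promoter windows (GRCh38.p14, 250 bases before to 50 after a start site) were matched by symbol for 29 members, with 37 windows. ERSE was found on either strand in a window of 8 of the 29 (27.6%), against 25 of all 27305 genes with windows (0.0916%). ERSE-II was found in 3 of the 29 (10.3%), against 19 of all genes (0.0696%). ERSE matches are shown because members that rose and members that fell without shCtrl 3 both carry the element. They are written in the direction of the element, with its fixed letters in capitals, for HSP90B1 the match nearer to the start site.
HSPA5: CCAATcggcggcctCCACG
HSP90B1: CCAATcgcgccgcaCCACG
CRELD2: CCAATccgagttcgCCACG
CALR: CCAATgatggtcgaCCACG
CANX: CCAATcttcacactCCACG
PDIA6: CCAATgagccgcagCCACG
ERO1B: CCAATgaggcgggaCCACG
XBP1: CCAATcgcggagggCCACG

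ERSE-II was present in HYOU1 (2 matches), SDF2L1 and HERPUD1. The spacer between the fixed letters differed in each of the 8 genes with ERSE. The promoters of XBP1 and HERPUD1 are shown whole because these 2 genes had the largest differences among the members, and those of HSPA5 and CALR because these chaperones carry the same element. Capitals mark ERSE in HSPA5 (chr9:125241294-125241593, minus strand), CALR (chr19:12938359-12938658, plus strand) and XBP1 (chr22:28800520-28800819, minus strand). In HERPUD1 (chr16:56931892-56932191, plus strand) they mark ERSE-II and, upstream of it, a C/EBP-ATF element.
HSPA5: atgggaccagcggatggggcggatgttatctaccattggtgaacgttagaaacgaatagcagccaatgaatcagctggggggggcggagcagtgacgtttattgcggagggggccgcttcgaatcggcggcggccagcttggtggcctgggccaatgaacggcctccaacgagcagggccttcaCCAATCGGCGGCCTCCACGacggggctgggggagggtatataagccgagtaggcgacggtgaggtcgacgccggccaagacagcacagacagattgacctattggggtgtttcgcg
CALR: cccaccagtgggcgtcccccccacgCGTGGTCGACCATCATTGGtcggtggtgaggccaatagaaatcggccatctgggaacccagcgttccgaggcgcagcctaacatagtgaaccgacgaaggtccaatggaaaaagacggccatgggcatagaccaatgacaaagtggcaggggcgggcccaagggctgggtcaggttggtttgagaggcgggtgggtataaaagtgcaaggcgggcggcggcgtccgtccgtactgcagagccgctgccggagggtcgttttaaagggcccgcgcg
XBP1: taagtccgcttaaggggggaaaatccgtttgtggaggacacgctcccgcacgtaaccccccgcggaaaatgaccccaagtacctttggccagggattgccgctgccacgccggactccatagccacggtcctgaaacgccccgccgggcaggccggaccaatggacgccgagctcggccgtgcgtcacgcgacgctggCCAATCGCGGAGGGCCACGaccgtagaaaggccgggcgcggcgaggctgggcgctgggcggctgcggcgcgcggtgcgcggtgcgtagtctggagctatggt
HERPUD1: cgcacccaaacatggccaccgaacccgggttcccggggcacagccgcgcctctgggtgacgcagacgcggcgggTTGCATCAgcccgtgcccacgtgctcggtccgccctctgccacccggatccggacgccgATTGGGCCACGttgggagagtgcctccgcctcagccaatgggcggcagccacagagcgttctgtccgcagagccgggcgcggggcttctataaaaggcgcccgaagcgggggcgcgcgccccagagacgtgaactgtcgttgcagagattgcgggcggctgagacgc

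The element nearest to the start site in these windows began 52 bases upstream in XBP1, 66 in HSPA5, 117 in HERPUD1 and 225 in CALR. The C/EBP-ATF element, the site of ATF4 with a C/EBP partner, was searched as TGATGNAA on both strands. It was found in HERPUD1 and CREB3L2, 2 of the 29 members, against 4.46% of all genes. The core of the XBP1 element, TGACGTG, was found in HYOU1, where it overlaps an ERSE-II match, and in SEC61A1, against 2.40% of all genes. A match describes letters and not bound protein.

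Over all 6 libraries none of the 33 members passed edgeR's quasi-likelihood test after Benjamini-Hochberg adjustment, as for the whole table, where 0 of 13988 genes were called in either direction (0%). By DESeq2, 1 member was called, CREB3L1, which was lower in the knockdown. DESeq2 called 0.0397% of 10083 genes higher and 0.139% lower, and limma-voom called no gene. At an unadjusted edgeR p under 0.05, ERO1A and ERO1B were higher and CALR and CREB3L1 lower, beside 4.0% of all genes higher and 7.33% lower. The knockdown and control libraries did not overlap for 5 members. ERO1B, CREB3L2 and DERL2 were higher in the knockdown (9.09% of members, against 7.33% of all genes), and HYOU1 and CREB3L1 lower (6.06%, against 8.43%). The median log2 fold change of the 33 members was −0.004, beside −0.016 for all genes tested.

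Without shCtrl 3, 12 members passed. Sizes of rises and falls in that fit are given as log2 fold changes. HERPUD1, XBP1, ERN1, EDEM1, ERO1A and SELENOS rose, and CRELD2, CALR, SDF2L1, CREB3L1, PDIA4 and UGGT1 fell. Each direction held 18.2% of the members, close to the 17.8% of all 14201 genes that rose and the 17.0% that fell, so the number called in each direction was near the background. Of the degradation factors 3 rose and 0 fell, and of the chaperones and lectins 0 rose and 4 fell. For 10 of these 12 genes shCtrl 3 lay inside the range of the knockdown libraries, and the exceptions were ERN1, where it lay above, and CREB3L1. These 12 were picked by a fit that leaves shCtrl 3 out, and the same share over all called genes is not given here. Over all 13988 genes tested, shCtrl 3 was nearer to the knockdown mean for 74.6%. For 11 of the 12, all but CREB3L1, shDNAJC2 3 was the knockdown library nearest to shCtrl 1 and 2, although it had the lowest DNAJC2. Over all 33 members shDNAJC2 3 was the nearest for 69.7%, beside 63.5% of all genes. Neither of these shares is limited to genes called in that fit.

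**Figure D1:**
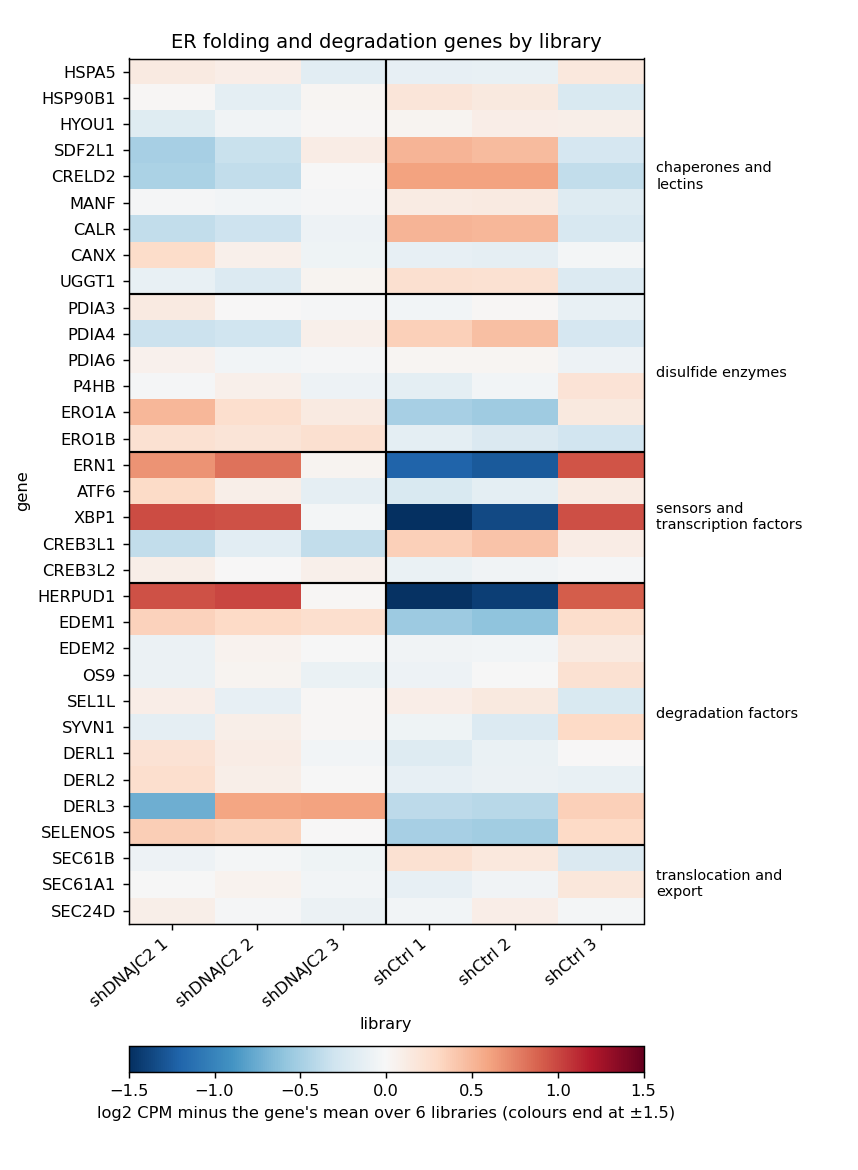
Level of each of the 33 genes (rows, by class) in each library (columns, shDNAJC2 left of shCtrl) as log2 CPM minus the gene's mean over the 6 libraries; red is higher, blue lower. HERPUD1, XBP1 and ERN1 are blue in shCtrl 1 and 2 and near white in shDNAJC2 3, while CALR, CRELD2, SDF2L1 and PDIA4 are red there, and shCtrl 3 carries the colours of shDNAJC2 1 and 2 in these rows.

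Of the 9 chaperones and lectins, 7 had negative log2 fold changes over all libraries, and the median was −0.15. None passed over all 6 libraries, and without shCtrl 3, 4 fell, 0 rose and 5 did not pass. Of all genes, 17.0% fell and 17.8% rose in the fit without shCtrl 3. Calreticulin (CALR), the soluble lectin and main calcium buffer of the ER lumen, had the highest level of the members per transcript length, at 594 CPM per kilobase averaged over libraries. CALR was at 842, 880 and 1033 CPM in shDNAJC2 1, 2 and 3, against 1558, 1540 and 923 CPM in shCtrl 1, 2 and 3. The 3 knockdown libraries were below shCtrl 1 and 2, and shCtrl 3 lay among them. The log2 fold change over all libraries was −0.55 (95% interval −1.09 to −0.003), and without shCtrl 3 CALR fell by 0.75 (standard error 0.13, adjusted p = 0.00318 in edgeR).

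CANX, the membrane-bound partner lectin of CALR, was at 843, 731 and 666 CPM in the knockdown and 636, 633 and 684 CPM in the controls. Its fitted log2 fold change was 0.20 (95% interval −0.12 to 0.52), of the opposite sign to that of CALR. It was 0.10 without shDNAJC2 1 and 0.095 with the trend of each library with GC content removed. As a share of CANX counts, which does not depend on library scaling, CALR counts stood at 99.8, 120 and 155% in the knockdown libraries, against 245, 243 and 135% in shCtrl 1, 2 and 3. UGGT1, the folding sensor that returns glycoproteins to these lectins, was at 112, 105 and 124 CPM in the knockdown and 143, 142 and 105 CPM in the controls. Its log2 fold change was −0.19 over all libraries (95% interval −0.54 to 0.16), and without shCtrl 3 it fell by 0.32 (edgeR adjusted p = 0.0391).

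HSPA5, the central ER chaperone (BiP) and the usual reporter of the unfolded protein response, was at 807, 783 and 657 CPM in the knockdown libraries, against 671, 680 and 815 CPM in the controls. The groups overlapped, with means of 749 ± 80.3 CPM in the knockdown and 722 ± 80.6 CPM in the controls (SD, n = 3 each). The log2 fold change of HSPA5 was 0.05, and its 95% interval ran from −0.30 to 0.40. HSP90B1 (GRP94), the ER form of HSP90, was at 883, 785 and 885 CPM in the knockdown and 984, 963 and 743 CPM in the controls. Its log2 fold change was −0.07 (95% interval −0.44 to 0.29). HYOU1, a nucleotide exchange factor of HSPA5, was at 220, 240 and 253 CPM in the knockdown and 257, 268 and 265 CPM in the controls, without overlap. Its log2 fold change was −0.15 (standard error 0.10), and −0.05 with the GC trend removed.

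CRELD2, a secreted ER stress protein, was at 27.6, 29.5 and 38.2 CPM in shDNAJC2 1, 2 and 3, against 58.3, 58.2 and 29.7 CPM in shCtrl 1, 2 and 3. SDF2L1, which keeps client proteins soluble with HSPA5, was at 14.3, 16.1 and 21.8 CPM in the knockdown, against 28.7, 28.0 and 17.0 CPM in the controls. In both genes the 3 knockdown libraries and shCtrl 3 were below shCtrl 1 and 2. Without shCtrl 3 CRELD2 fell by 0.87 (adjusted p = 0.00259 in edgeR) and SDF2L1 by 0.69 (adjusted p = 0.0154 in edgeR), and over all libraries their log2 fold changes were −0.62 and −0.50, the second being −0.24 with the GC trend removed. CRELD2 shares exon positions with ALG12 on the opposite strand, and whether counting used strand is not stated, so its reads could not be told apart from those of ALG12. MANF, a secreted co-factor of HSPA5, was at 91.5, 90.0 and 91.7 CPM in the knockdown and 101, 102 and 80.8 CPM in the controls, and its log2 fold change was −0.06 (95% interval −0.34 to 0.22).

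**Figure D2:**
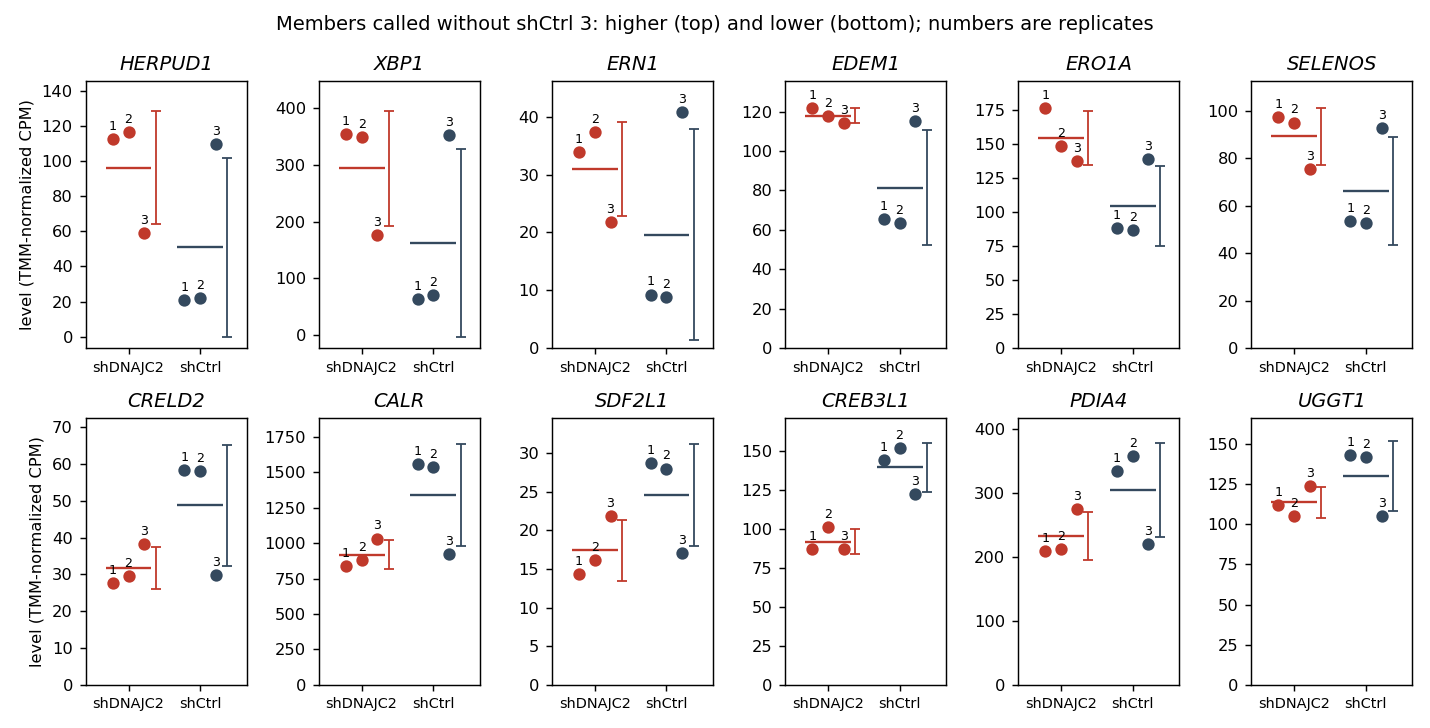
Level (CPM, linear axes) of the 12 genes that passed without shCtrl 3, with shDNAJC2 libraries left and shCtrl libraries right; points are libraries labelled by replicate, horizontal lines are group means and bars are 1 SD (n = 3). In every panel but that of CREB3L1, control replicate 3 sits away from control replicates 1 and 2 and near the knockdown points.

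Among the 6 disulfide enzymes 1 rose and 1 fell without shCtrl 3, and the median over all libraries was 0.04. Without shCtrl 3 the shares of all genes were 17.8% higher and 17.0% lower. PDIA4 (ERp72), a disulfide isomerase found with HSPA5 complexes, was at 209, 212 and 275 CPM in the knockdown, against 334, 357 and 220 CPM in shCtrl 1, 2 and 3. Its log2 fold change was −0.39 over all libraries (95% interval −0.89 to 0.12), and without shCtrl 3 it fell by 0.57 (standard error 0.14, adjusted p = 0.0131 in edgeR). The other isomerases did not pass in either fit. PDIA3 (ERp57), which works with CALR and CANX, averaged 616 ± 35.2 CPM in the knockdown and 581 ± 25.8 CPM in the controls. PDIA6 averaged 454 ± 18.2 CPM in the knockdown and 453 ± 19.9 CPM in the controls. P4HB, the founding isomerase and a subunit of prolyl hydroxylase, averaged 1038 ± 54.4 CPM in the knockdown and 1053 ± 136 CPM in the controls (SD, n = 3 each). The 95% intervals of the log2 fold changes were −0.19 to 0.36 for PDIA3, −0.26 to 0.26 for PDIA6 and −0.36 to 0.32 for P4HB. PDIA3 has 2 annotated pseudogenes, and how reads were divided among them was not stated.

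ERO1A, the oxidase that reloads disulfide isomerases and is also a known target of hypoxia signalling and CHOP, was at 177, 149 and 138 CPM in shDNAJC2 1, 2 and 3, against 88.6, 87.0 and 139 CPM in shCtrl 1, 2 and 3. The knockdown libraries and shCtrl 3 stood together above shCtrl 1 and 2. It rose by 0.82 without shCtrl 3 (standard error 0.12, adjusted p = 0.00175 in edgeR), and the log2 fold change over all libraries was 0.56 (95% interval 0.07 to 1.06). Its paralog ERO1B, best known from secretory cells such as those of the pancreas, was at 5.53, 5.38 and 5.57 CPM in the knockdown and 4.26, 4.05 and 3.85 CPM in the controls. Here shCtrl 3 stayed with the other controls and the groups did not overlap. The log2 fold change of ERO1B was 0.44 (95% interval 0.06 to 0.82), and without shCtrl 3 it was 0.41 (adjusted p = 0.0881 in edgeR). With the GC trend removed it was 0.29, at a GC content of 37.0%.

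Among the sensors and transcription factors 2 rose and 1 fell without shCtrl 3, and the genes that rose were ERN1 and XBP1 of the IRE1 branch. Over all genes, 17.8% rose and 17.0% fell in that fit. ERN1 (IRE1, ENSG00000178607), the kinase and nuclease that splices XBP1, was at 33.9, 37.3 and 21.8 CPM in the knockdown, against 9.27, 8.86 and 40.8 CPM in shCtrl 1, 2 and 3. XBP1 (ENSG00000100219), its substrate and a transcription factor of ER biogenesis, was at 355, 349 and 177 CPM in the knockdown, against 62.7, 70.8 and 353 CPM in the controls. For both genes shCtrl 1 and 2 were the lowest libraries, shDNAJC2 3 was intermediate, and shCtrl 3 was as high as shDNAJC2 1 and 2. XBP1 rose by 2.14 without shCtrl 3 (standard error 0.28, adjusted p = 0.00101 in edgeR) and ERN1 by 1.77 (standard error 0.23, adjusted p = 8.9e-04 in edgeR). Over all libraries their log2 fold changes were 0.86 (95% interval −0.79 to 2.50) and 0.66 (−0.79 to 2.11).

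ATF6, the membrane-bound precursor of the transcription factor that acts on ERSE, was at 81.0, 70.5 and 60.6 CPM in the knockdown and 56.8, 59.8 and 72.4 CPM in the controls. It did not pass in either fit, and the interval of its log2 fold change ran from −0.19 to 0.52 around 0.17, with 0.056 when the GC trend was removed. ERN1 counts were 41.9, 52.9 and 36.0% of ATF6 counts in the knockdown libraries, against 16.3, 14.8 and 56.3% in shCtrl 1, 2 and 3. CREB3L1 (OASIS), an ER-membrane transcription factor related to ATF6 and known for its control of collagen genes, was the 1 member that DESeq2 called over all 6 libraries. CREB3L1 was at 86.9, 101 and 87.0 CPM in the knockdown, against 144, 152 and 122 CPM in the controls, without overlap.

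The log2 fold change of CREB3L1 was −0.60 over all libraries (95% interval −0.90 to −0.31, unadjusted p = 0.0019 and adjusted p = 0.429 in edgeR) and −0.68 without shCtrl 3. By DESeq2 its adjusted p over all 6 libraries was 0.0471. Its GC content was 61.1%, and the libraries differed in their trend with GC. That trend, in log2 units per 10% GC, was −0.185, −0.0236 and −0.0117 in the knockdown and 0.0403, 0.0516 and 0.128 in the controls, and with it removed the log2 fold change was −0.40. Of 6 fibroblast markers, which ACHN cells also expressed, 0 passed over all libraries. COL1A1, COL3A1 and PDGFRB fell without shCtrl 3, beside 17.0% of all genes. The summed level of the 6 markers was 883 to 1478 CPM in the knockdown libraries and 989 to 3519 CPM in the controls, with no marker at 0. The part of these markers in the level of CREB3L1 was not tested. The paralog CREB3L2 was at 171, 161 and 169 CPM in the knockdown and 150, 155 and 159 CPM in the controls, also without overlap but with a log2 fold change of 0.11 (standard error 0.09).

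Among the 10 degradation factors 3 rose, 0 fell and 7 did not pass without shCtrl 3, and the median over all libraries was 0.20. The background without shCtrl 3 was 17.8% of all genes rising and 17.0% falling, and 10 genes are too few to part 3 rises from it. HERPUD1 (HERP, ENSG00000051108), a membrane protein that recruits the HRD1 ubiquitin ligase complex, was at 113, 117 and 59.3 CPM in shDNAJC2 1, 2 and 3, against 20.9, 22.0 and 110 CPM in shCtrl 1, 2 and 3. The lowest libraries were shCtrl 1 and 2, and shCtrl 3 was as high as shDNAJC2 1 and 2. HERPUD1 rose by 2.17 on the log2 scale without shCtrl 3, or 4.49-fold (standard error of the log2 value 0.27, adjusted p = 8.4e-04 in edgeR). That was the largest change of the 33 members in that fit. Over all libraries its log2 fold change was 0.92 (95% interval −0.68 to 2.52). HERPUD1 counts were 14.0, 14.9 and 9.02% of HSPA5 counts in the knockdown libraries, against 3.12, 3.23 and 13.4% in shCtrl 1, 2 and 3.

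EDEM1, a lectin that draws mannose-trimmed glycoproteins out of the folding cycle, was at 122, 118 and 114 CPM in the knockdown and 65.6, 63.3 and 115 CPM in shCtrl 1, 2 and 3. Its log2 fold change was 0.53 over all libraries (95% interval −0.03 to 1.10), and without shCtrl 3 it rose by 0.87 (standard error 0.09, adjusted p = 4.3e-04 in edgeR). EDEM2, which starts that trimming, averaged 25.6 ± 1.27 CPM in the knockdown and 26.2 ± 1.96 CPM in the controls, with a 95% interval of −0.30 to 0.23 for its log2 fold change. SELENOS, a selenoprotein that links the derlin channel to the ATPase VCP, was at 97.4, 95.1 and 75.6 CPM in the knockdown and 53.4, 52.6 and 92.6 CPM in the controls. The log2 fold change of SELENOS was 0.43 over all libraries (95% interval −0.14 to 1.01), and without shCtrl 3 it rose by 0.76 (standard error 0.13, adjusted p = 0.00298 in edgeR).

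The core of the ligase complex did not pass in either fit. SYVN1, the ubiquitin ligase HRD1 itself, averaged 115 ± 8.92 CPM in the knockdown and 117 ± 21.8 CPM in the controls. SYVN1 shares exon positions with FAU and MRPL49, so its counts are uncertain. Its partner SEL1L averaged 69.5 ± 5.34 CPM in the knockdown and 70.3 ± 9.39 CPM in the controls. The lectin OS9, which delivers glycoproteins to SEL1L, averaged 244 ± 13.0 CPM in the knockdown and 263 ± 29.9 CPM in the controls (SD, n = 3 each). The 95% intervals of their log2 fold changes were −0.40 to 0.33 for SYVN1, −0.33 to 0.29 for SEL1L and −0.40 to 0.18 for OS9. EDEM1 counts were 164, 185 and 162% of SEL1L counts in the knockdown libraries, against 87.9, 82.5 and 194% in shCtrl 1, 2 and 3.

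The derlins are multispanning proteins of the retrotranslocation channel, and DERL1 and DERL2 had small positive log2 fold changes. DERL1 was at 96.7, 89.6 and 80.9 CPM in the knockdown and 72.8, 77.9 and 83.8 CPM in the controls, and DERL2 at 63.7, 56.7 and 53.0 CPM in the knockdown and 49.0, 50.1 and 49.5 CPM in the controls. DERL2 did not overlap between the groups (log2 fold change 0.22, standard error 0.11), and it shares exon positions with MIS12 on the opposite strand. With the GC trend removed the log2 fold change was 0.09 for DERL2 and 0.12 for DERL1, against 0.19 for DERL1 with it. DERL3 was the lowest member per transcript length, with 21 to 70 counts in the knockdown libraries and 34 to 56 in the controls. Its log2 fold change was 0.38, and the 95% interval of −0.62 to 1.38 did not part a 2-fold difference from none.

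None of the 3 translocation and export genes passed in either fit. SEC61A1, the pore subunit of the translocation channel, averaged 524 ± 19.1 CPM in the knockdown and 526 ± 56.7 CPM in the controls. SEC61B, a small subunit of that channel, was at 69.8, 71.9 and 70.3 CPM in the knockdown and 86.5, 82.1 and 63.4 CPM in the controls, with an adjusted p = 0.0592 in edgeR without shCtrl 3. SEC24D, a cargo adaptor of the COPII coat that buds vesicles from the ER, averaged 120 ± 7.94 CPM in the knockdown and 121 ± 6.75 CPM in the controls (SD, n = 3 each). The 95% intervals of the 3 log2 fold changes lay within −0.45 and 0.30.

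Reads of other members may also include those of neighbours. Exon positions are shared with protein-coding genes on the opposite strand by HSP90B1 (C12orf73), CANX (CBY3), PDIA3 (ELL3 among them), PDIA6 (ATP6V1C2), DERL1 (TBC1D31), DERL3 (SMARCB1) and SEC61A1 (RUVBL1). XBP1 has 1 annotated pseudogene, XBP1P1.

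**Figure D3:**
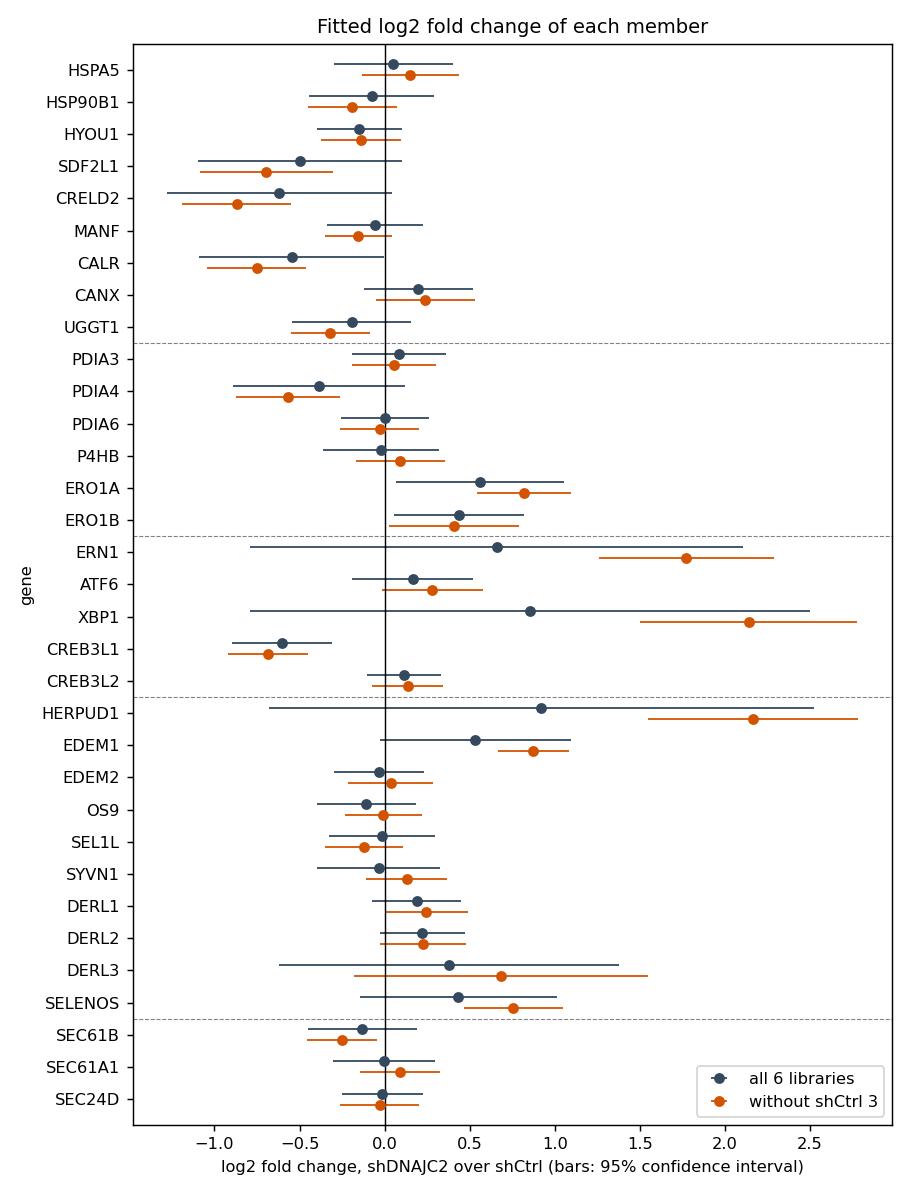
Fitted log2 fold change (shDNAJC2 over shCtrl, horizontal axis) of each of the 33 genes, with 95% confidence intervals, over all 6 libraries (dark) and without shCtrl 3 (orange); dashed lines part the classes. The dark intervals of 29 genes include 0, and those of HERPUD1, XBP1 and ERN1 are the widest.

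Class levels were set side by side library by library. Each gene is centred on its own mean, so these values compare libraries and their zero has no meaning of its own. The mean log2 level of the degradation factors, each gene relative to its mean over the 6 libraries, was 0.12, 0.24 and 0.07 in shDNAJC2 1, 2 and 3, against −0.33, −0.32 and 0.21 in shCtrl 1, 2 and 3. That of the chaperones and lectins was −0.14, −0.14 and −0.01 in the knockdown, against 0.22, 0.21 and −0.14 in the controls. Degradation factors minus chaperones was therefore 0.26, 0.39 and 0.09 in shDNAJC2 1, 2 and 3, against −0.55, −0.54 and 0.35 in shCtrl 1, 2 and 3. The difference was lower in shCtrl 1 and 2 than in the other 4 libraries. Lists of other ER genes did not show this contrast. The 41 other folding factors were at 0.120, 0.081 and 0.003 in the knockdown, against −0.154, −0.125 and 0.075 in the controls. The 32 other degradation factors were at 0.095, 0.060 and 0.017, against −0.129, −0.104 and 0.060. Both lists were thus lower in shCtrl 1 and 2.

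Sensors and transcription factors, again on the relative log2 scale, were at 0.33, 0.34 and −0.08 in the knockdown and −0.54, −0.47 and 0.43 in the controls. Most of that spread came from XBP1 and ERN1. Among the degradation factors HERPUD1 weighed most, then EDEM1, SELENOS and, at few counts, DERL3. Relative to the mean of shCtrl 1 and 2, DERL3 lay at −0.31, 0.95 and 0.96 in shDNAJC2 1, 2 and 3. Disulfide enzymes stayed between −0.07 and 0.10, and translocation and export genes between −0.07 and 0.07. Summed over the chaperones and lectins, the level was 3840, 3659 and 3771 CPM in the knockdown libraries, against 4437, 4414 and 3663 CPM in the controls. Most of the difference in this sum came from CALR alone, at 842, 880 and 1033 CPM against 1558, 1540 and 923 CPM. The sum thus reports mainly CALR and cannot show whether the other chaperones and lectins fell. Without shCtrl 3, 7 of the 9 had negative log2 fold changes. Of the 9, 4 fell and 0 rose, beside 17.0% and 17.8% of all genes. Summed over the degradation factors, the level was 934, 950 and 834 CPM in the knockdown, against 713, 720 and 979 CPM in the controls. No test was made on these class values, since the members were chosen with earlier results known.

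**Figure D4:**
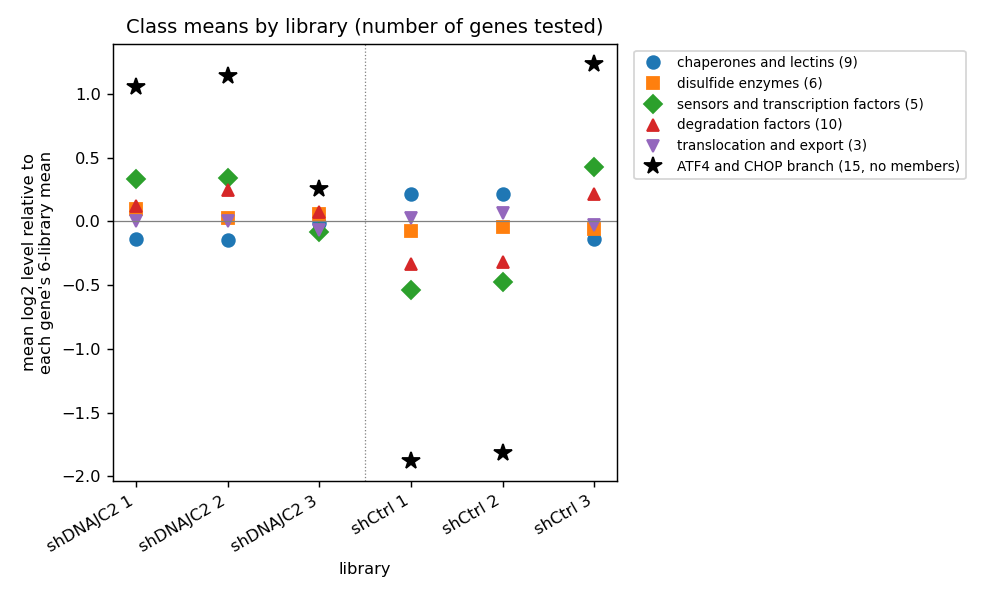
Mean log2 level of each class (each gene relative to its mean over 6 libraries, vertical axis) in each library, shDNAJC2 left and shCtrl right of the dotted line, with the ATF4 and CHOP branch as stars. Sensors and degradation factors are lower, and chaperones and lectins higher, in shCtrl 1 and 2 than in the other libraries; only differences between libraries carry meaning, since each gene is centred.

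Members with ERSE or ERSE-II were found in both directions. Of the 11 members with either element, 2 rose (XBP1 and HERPUD1), 3 fell (CALR, CRELD2 and SDF2L1) and 6 did not pass without shCtrl 3. Of the 18 members with windows and neither element, 4 rose, 3 fell and 11 did not pass. Of all genes in that fit, 17.8% rose and 17.0% fell. Counts this small cannot tell whether an element goes with a direction. XBP1 and CALR both carry ERSE, and their log2 fold changes in that fit were 2.14 and −0.75.

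Other genes of the same pathways were compared by lists. The counts without shCtrl 3 stand beside 17.8% of all 14201 genes that rose and 17.0% that fell in that fit. The ATF4 and CHOP branch, which acts downstream of PERK, had 15 genes with positive log2 fold changes over all libraries (median 0.86) of which 0 passed, and all 15 rose without shCtrl 3 (median 3.07). The smallest p-values in that fit were those of SLC7A11 (log2 fold change 3.19), ASNS (4.21) and PSAT1 (4.05), a cystine transporter and amino acid synthesis genes. ATF4 was at 952, 1032 and 712 CPM in the knockdown and 259, 275 and 1082 CPM in shCtrl 1, 2 and 3, and DDIT3, which encodes CHOP, at 40.9, 44.4 and 21.8 CPM in the knockdown and 11.1, 10.3 and 42.1 CPM in the controls. The relative level of this list was 1.06, 1.14 and 0.26 in the knockdown and −1.88, −1.81 and 1.24 in the controls, lowest in shCtrl 1 and 2 and intermediate in shDNAJC2 3, as for HERPUD1. EIF2AK3 mRNA, encoding PERK, was at 21.0, 18.7 and 17.6 CPM in the knockdown and 19.6, 19.3 and 18.6 CPM in the controls. PERK activity was not measured, and whether the rises of this list came through PERK was not tested.

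Of 41 other ER folding factors tested, 0 passed over all libraries (median 0.09), and without shCtrl 3, 11 rose and 1 fell. Of all genes, 17.8% rose and 17.0% fell in that fit. DNAJB9 (ERdj4), a co-chaperone of HSPA5 and standard XBP1 target, was at 45.8, 38.1 and 19.3 CPM in the knockdown and 9.72, 9.78 and 38.2 CPM in shCtrl 1, 2 and 3. Its log2 fold change was 0.84 over all libraries, and without shCtrl 3 it rose by 1.82, beside rises of 0.91 for CLGN, a calnexin relative, and 0.79 for TXNDC12, a thioredoxin-like ER protein. Of 32 other degradation factors (median 0.14), 0 passed over all libraries, and 9 rose and 0 fell without shCtrl 3. The rises were led by the membrane protease RHBDD1 (log2 fold change 0.95), the lipid-droplet and degradation factor AUP1 (0.69) and the conjugating enzyme UBE2J1 (0.78).

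Of 34 other translocation and glycosylation factors (median 0.14), 0 passed over all libraries, and without shCtrl 3, 10 rose and 1 fell. The shares of all genes in that fit were 17.8% and 17.0%. SRPRB (log2 fold change 0.81), TUSC3 (0.38) and SEC61G (0.43) had the smallest p-values. Of 16 other export factors (median −0.06), 0 passed over all libraries, and without shCtrl 3, 0 rose and 3 fell. These were the retrieval receptor KDELR3 (log2 fold change −0.79) and the coat genes SEC13 (−0.34) and SEC24C (−0.34). Of 10 other sensors and transcription factors (median −0.11), 0 passed over all libraries, and 2 rose and 2 fell without shCtrl 3. The smallest p-values there were those of NFE2L1 (log2 fold change 0.73), the ATF6-cleaving protease MBTPS1 (0.42) and the XBP1 ligase subunit RTCB (−0.35).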

How the data were processed

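The authors deposited raw read counts per gene for 6 libraries, with no normalization. The unit was taken from the values, all whole, with unequal column totals. Reads were placed on GRCh38, per the submitters' processing notes. For the aligner, counter, annotation and strandedness, each is not given in the sources used here.

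Groups were compared with edgeR 4.0.16 (R 4.3.3): quasi-likelihood F test, two-sided, TMM, filterByExpr, Benjamini-Hochberg adjustment over all genes tested, threshold 0.05. Standard errors for edgeR were derived from the test, as the absolute log2 fold change divided by the square root of F. Confidence intervals are at 95% and were built from these standard errors with t quantiles. Log2 CPM used a prior count of 2. Lengths (longest protein-coding transcript), GC content, coordinates and exon overlap came from GENCODE 29. Promoter windows are from RefSeq. Scripts were tested on simulated data. Alternatives were DESeq2 1.42.0, limma-voom (limma 3.58.1), other size factors and filters, a GC correction, a replicate block and leaving out each library.

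Members and lists were chosen with earlier results of these data known. All members and DNAJC2 are named. From each list up to 3 genes passing with the smallest p are named, taken without shCtrl 3 where none passed over 6 libraries, and ATF4, DDIT3, EIF2AK3 and DNAJB9. Members sharing exon positions with protein-coding genes are named, since their reads may not be separable; overlaps with non-coding genes are not listed.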

Additional observations from a re-analysis of the deposited data

How the results depend on the processing

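The number of members called was 0 over all 6 libraries, 1 by DESeq2 and 0 to 12 when each library was left out, with 12 only without shCtrl 3. The number of all genes called was 0, with 18 by DESeq2 and 0 to 4945 when each library was left out. DNAJC2 had a log2 fold change of −0.72 by DESeq2, where it passed, and of −0.81 to −0.60 when libraries were left out, passing only without shCtrl 3. Nothing states that equal replicate numbers pair the libraries. Deviations of equal numbers from their group means had correlations of −0.38, −0.52 and −0.66. Because shCtrl 3 and shDNAJC2 3 stand apart from their groups, these correlations cannot tell whether equal numbers shared handling. With the replicate block 0 members were called and SEC61A1 turned to 0.001. The median of the disulfide enzymes, 0.04, moved to 0.080 with the GC trend removed and to 0.012 to 0.079 when libraries were left out, and that of translocation and export genes, −0.01, to −0.077 and to −0.063 to 0.034. That of the ATF4 and CHOP branch lay between 0.41 and 3.07.

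Signs turned for members near 0. With the GC trend removed these were HSPA5 (−0.008), MANF (0.023), PDIA6 (−0.056), P4HB (0.149), EDEM2 (0.052), SYVN1 (0.140) and SEC61A1 (0.068). PDIA6 was at −0.020 with upper-quartile factors. SEC61A1 was at 0.007 by DESeq2, 0.005 with RLE factors, 0.002 with the 1 CPM filter, 0.001 by limma-voom and 0.004 with no filter. When libraries were left out the ranges were −0.003 to 0.153 for HSPA5, −0.189 to 0.010 for HSP90B1, −0.154 to 0.010 for MANF, −0.028 to 0.035 for PDIA6, −0.080 to 0.092 for P4HB, −0.064 to 0.035 for EDEM2, −0.120 to 0.060 for SEL1L, −0.126 to 0.129 for SYVN1, −0.051 to 0.091 for SEC61A1 and −0.063 to 0.047 for SEC24D. The cause was not tested. None of the 12 genes called without shCtrl 3 changed sign under any alternative run. They were chosen from these same data for their differences, so a kept sign is no independent support. Outside that fit only CREB3L1 passed, and only by DESeq2.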

Other observations

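ERSE was also found in windows of genes outside the ER folding and degradation set, 8 of which were tested, chosen by sequence after the members' values were seen. Without shCtrl 3, EIF2A (log2 fold change 0.36) and SERP1 (0.58), an ER membrane protein that stabilises new membrane proteins, rose, and ALG12 (−0.41, whose reads could not be told apart from those of CRELD2), SYNPO (−0.80), TMEM120A (−0.47) and TRIM5 (−1.28) fell, while FICD, the enzyme that AMPylates HSPA5, and ZNF17 did not pass. The median log2 fold change of the 8 was −0.29 over all libraries and −0.39 without shCtrl 3. In that fit 17.8% of all genes rose and 17.0% fell, and 8 genes are too few to tell a direction. FICD was at 15.4, 15.0 and 14.6 CPM in the knockdown and 11.6, 11.5 and 16.4 CPM in shCtrl 1, 2 and 3. SERP1 was at 151, 141 and 108 CPM in the knockdown and 89.9, 88.9 and 140 CPM in the controls, with shCtrl 3 again inside the knockdown range.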
